A study of Mus musculus with 20 samples.

Results

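The comparison was between 5 Control mice killed 2 hours after amphetamine and 5 Control mice killed 2 hours after saline, gene by gene, in the striatum. These were 10 of the 20 mice sequenced, chosen by the line and treatment in their labels. All were adult males of generation 17, about 6.5 months old, and striatal tissue of both hemispheres was dissected from a coronal slice and pooled within the mouse. The Control line descends without selection for activity from an intercross of several inbred strains, and the High-Active line was bred from the same population for home cage activity. Each mouse received 1 intraperitoneal injection at 10 ml/kg, of saline or of d-amphetamine sulfate dissolved in saline (dose 0.25 mg/kg), and went back to its home cage. The 20 mice included no untreated mice and no other dose or time. The mice are outbred, so each carries its own mixture of founder genomes. Amphetamine mouse 409 and saline mouse 411 had the same parents, as did amphetamine mouse 407 and saline mouse 448, and the other 6 Control mice had parents of their own. Single values are given below for saline mice 411, 448, 469, 477 and 883 in that order, and for amphetamine mice 369, 407, 409, 454 and 457 in that order.

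Amphetamine reverses the dopamine transporter and the vesicular monoamine transporter, and so releases dopamine onto the medium spiny neurons that make up most of the striatum. In direct pathway neurons the D1 receptor raises cAMP, and kinases downstream of it activate CREB and switch on immediate early genes such as Fos, Egr1, Arc and Nr4a1. D2 receptors on indirect pathway neurons lower cAMP. Neuropeptide genes such as Pdyn and Tac1 usually follow the immediate early genes more slowly, and stimulants also release glucocorticoids from the adrenal gland.

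The libraries held between 32425488 and 46454129 counts on genes, and 14792 genes exceeded 1 CPM (a gene's count scaled to a library of standard size) in 3 or more of the 20 mice. At these depths 3 counts correspond to 0.0646 to 0.0925 CPM. The tissue carried the markers of striatum in all 10 mice. The summed level of 9 medium spiny neuron markers was 4370.4 to 5673 CPM after saline and 4809.7 to 5785 CPM after amphetamine. Markers of neighboring tissue were less even. The 8 markers of cortical excitatory neurons summed to 853, 327, 451, 301 and 735 CPM in the saline mice and to 719, 875, 621, 746 and 651 CPM in the amphetamine mice. Saline mice 448, 469 and 477 lay below every amphetamine mouse, and saline mice 411 and 883 lay within the amphetamine range. The median of each gene list below is therefore also given with the cortical marker score as a covariate, under which the median of all genes was -0.00097. Choroid plexus markers ranged from 27.9 to 766 summed CPM after saline and from 31.0 to 277 after amphetamine. Red blood cell markers ranged from 28.1 to 189 and from 15.1 to 49.9 summed CPM. Of the markers of other cell types, only Kcne2 of choroid plexus was at 0 counts in any Control mouse, in 2 of them. In whole tissue, fewer cells of a type and less RNA per cell cannot be told apart.

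**Figure D1:**
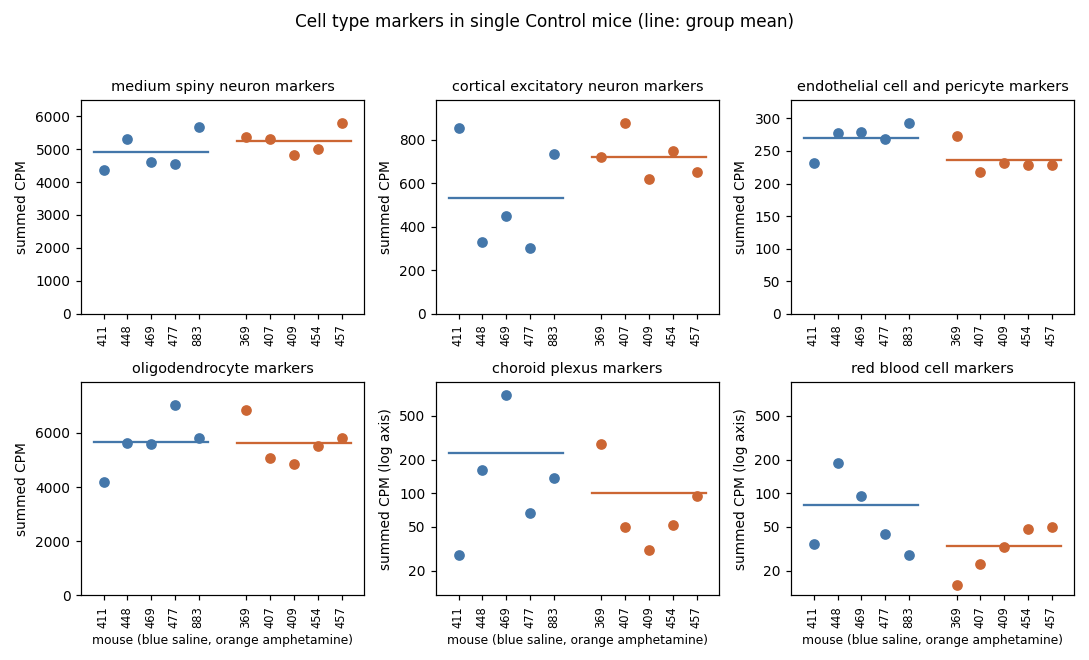
Summed CPM (vertical axis, log scale for choroid plexus and red blood cell) of the marker genes of 6 cell types in each Control mouse (horizontal axis). Each point is 1 mouse, blue for saline and orange for amphetamine, and the line is the group mean. Cortical markers were between 301 and 451 in saline mice 448, 469 and 477 and between 621 and 875 in the 5 amphetamine mice.

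No gene passed a false discovery rate (FDR) of 0.1 for amphetamine in Control mice (0.0% of 14792) in edgeR's quasi-likelihood test on the counts. The smallest adjusted p was 0.191. Before adjustment 940 genes (6.35%) had p under 0.05, 456 of them (3.08%) with a positive and 484 (3.27%) with a negative fold change for amphetamine. With library sizes alone in place of TMM scaling, the split was 322 higher and 622 lower, and the median log2 fold change of all genes moved from -0.0029 to -0.020. All 5 amphetamine mice lay above all 5 saline mice in 82 genes (0.554%) and below them in another 82 (0.554%), together 1.11% of all genes. With the cortical score as a covariate 712 genes (4.81%) had p under 0.05. DESeq2 called 6 genes at the same FDR (0.0406%), and edgeR's likelihood-ratio test with robust dispersions, the dispersion method of the study, called 45 (0.304%), 28 of them higher. Of the 6 DESeq2 genes, 4 were also among these 45. Leaving out 1 mouse gave 0 genes in 8 of the 10 fits, 3 genes without saline mouse 411 and 1 gene without amphetamine mouse 457, and the number with p under 0.05 ran from 621 without mouse 454 to 1224 without mouse 411. Without saline mice 448, 469 and 477, the mice low in cortical markers, 490 genes had p under 0.05.

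Apart from Gm7935, Gm10600, Gm6274 and Tcea1-ps1, the genes of smallest p described here differed by at most 0.49 on the log2 scale. The median standard error was 0.073 on the log2 scale for genes over 10 CPM. Necab1, which encodes a neuronal calcium-binding protein, had the smallest p of the genes that were higher with amphetamine. Its levels were 167, 155, 155, 149 and 155 CPM after saline and 189, 190.3, 169.6, 196 and 177 CPM after amphetamine. Every amphetamine mouse lay above every saline mouse, as in 0.554% of all genes. Here and below, genes of smallest p were picked by this same comparison. A lack of overlap in them follows in part from that choice and adds no support. For Necab1 the log2 fold change was 0.24 (SE 0.052, adjusted p = 0.677), and DESeq2 gave an adjusted p of 0.0377. Necab1 spans bases 14952245 to 15149794 of chromosome 4 (GRCm38).

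Klf9, a transcription factor that glucocorticoids and thyroid hormone induce, also separated the groups. Its CPM values were 184, 189, 165, 165 and 188 after saline and 213, 231, 203, 254 and 214 after amphetamine (log2 fold change 0.32, SE 0.090, adjusted p = 0.677). Nedd9, a scaffold protein of focal adhesions, had 9.06 to 11.0 CPM after saline and 11.9 to 13.1 CPM after amphetamine (log2 fold change 0.30). Cog8, a subunit of a Golgi tethering complex, had 16.3 to 18.5 and 19.1 to 20.8 CPM (0.20 on the log2 scale). The groups did not overlap in either gene, nor in Lmbrd1, which encodes a lysosomal exporter of vitamin B12, with 145 to 151 CPM after saline and 153 to 181 CPM after amphetamine.

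Other genes of this group rested on most but not all amphetamine mice. The sodium-calcium exchanger Slc8a1 had 17.8, 12.0, 14.5, 11.7 and 11.5 CPM after saline and 19.9, 20.0, 19.8, 20.4 and 14.9 CPM after amphetamine (log2 fold change 0.49, SE 0.13, adjusted p = 0.677). Amphetamine mouse 457 lay among the saline mice, and the other 4 were above all of them. In Noc2l, an inhibitor of histone acetyltransferases, amphetamine mouse 369 had 93.1 CPM, inside the saline range of 89.3 to 96.3, and the other 4 had 113 to 134. Pgm2l1, which makes glucose-1,6-bisphosphate, and Cyb5b, a cytochrome of the outer mitochondrial membrane, overlapped between the groups and had log2 fold changes of 0.33 and 0.20. Gm7935 and Gm10600, also among the higher genes of smallest p, are described further below. Gm7935 was tested only through the amphetamine mice that were high in it.

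**Figure D2:**
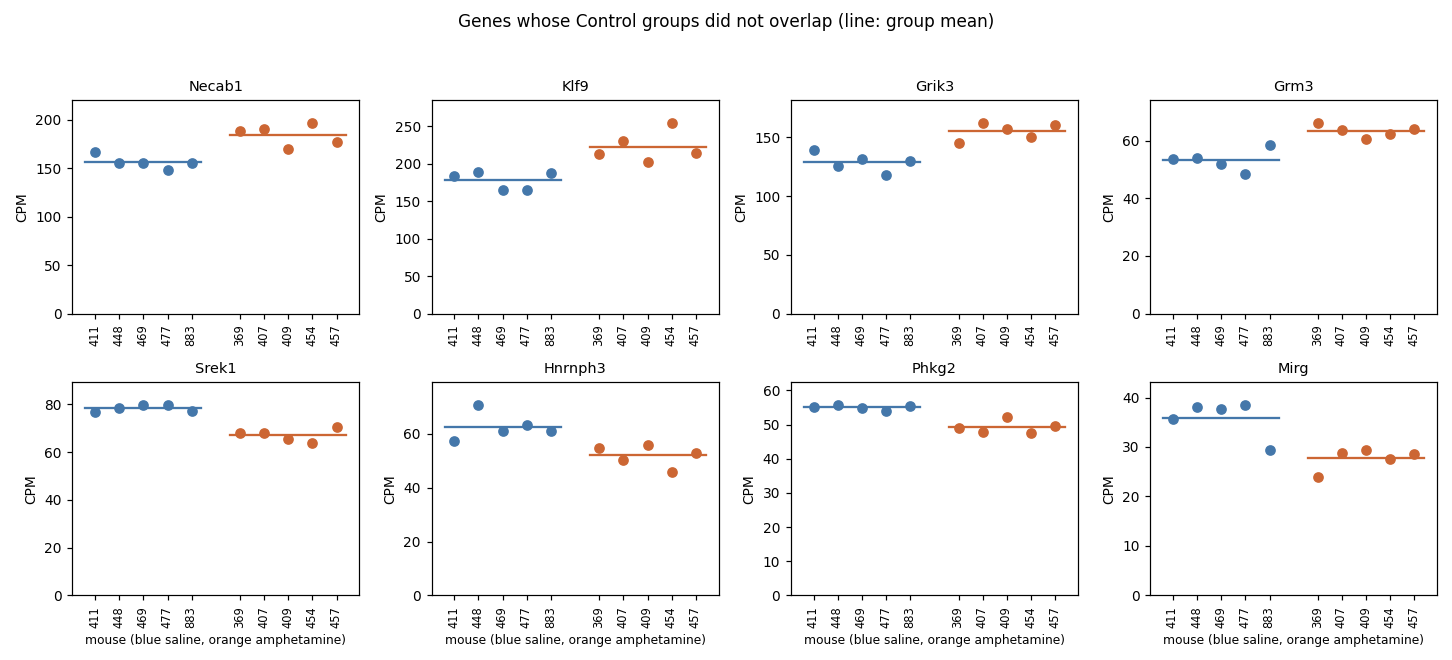
CPM (vertical axis, from 0) of 8 genes in each Control mouse (horizontal axis), blue for saline and orange for amphetamine, with the group mean as a line. In Necab1, Klf9, Grik3 and Grm3 the 5 amphetamine mice lie above the 5 saline mice, and in Srek1, Hnrnph3, Phkg2 and Mirg they lie below them.

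Of the genes that were lower with amphetamine, Srek1, a splicing regulator, had 76.8, 78.6, 79.6, 79.6 and 77.3 CPM after saline and 67.9, 67.8, 65.5, 63.7 and 70.6 CPM after amphetamine (log2 fold change -0.22, SE 0.055, adjusted p = 0.677). Hnrnph3, an RNA-binding protein of the hnRNP family, ranged from 57.2 to 70.6 CPM after saline and from 45.8 to 55.9 CPM after amphetamine (log2 fold change -0.27). Pabpn1, the nuclear poly(A)-binding protein, ranged from 31.1 to 36.4 and from 27.8 to 29.8 CPM (-0.22 on the log2 scale). The groups did not overlap in any of the 3 genes. They also did not overlap in Phkg2, a catalytic subunit of phosphorylase kinase, with 54.1 to 55.7 CPM against 47.6 to 52.3 CPM, or in Kansl3, a subunit of a histone acetyltransferase complex, with 92.1 to 97.7 against 81.5 to 91.2 CPM. The log2 fold changes of these genes were -0.16 and -0.15.

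Mirg is a noncoding RNA of the imprinted Dlk1-Dio3 region, where it is expressed from the maternal chromosome together with Meg3. It lies on chromosome 12 from 109729764 to 109749460. Mirg had 35.7, 38.1, 37.6, 38.5 and 29.5 CPM after saline and 24.0, 28.9, 29.4, 27.7 and 28.6 CPM after amphetamine (log2 fold change -0.37, SE 0.087, adjusted p = 0.677). The lowest saline mouse, 883, was just above the highest amphetamine mouse, 409. Meg3, named after its values were seen, lies on the same chromosome from 109541001 to 109571726 and had 3542, 3971, 3742, 4478 and 3125 CPM after saline and 3145, 2996, 2847, 3072 and 2869 CPM after amphetamine (log2 fold change -0.34, adjusted p = 0.677). The groups overlapped in Meg3, since saline mouse 883 lay below amphetamine mouse 369, and the other 4 saline mice lay above every amphetamine mouse. With the cortical score as a covariate the log2 fold changes were -0.30 for Mirg and -0.23 for Meg3.

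Chchd1, a component of the mitochondrial ribosome, had 25.1, 27.9, 30.3, 31.5 and 22.3 CPM after saline and 20.4, 19.0, 24.9, 18.5 and 19.4 CPM after amphetamine (log2 fold change -0.42, adjusted p = 0.677). The groups overlapped through saline mouse 883 and amphetamine mouse 409. Msantd2, of which 4 amphetamine mice had 11.4 to 12.5 CPM and mouse 457 had 14.8, against 14.5 to 16.4 after saline, was the gene called when mouse 457 was left out (log2 fold change -0.38, adjusted p = 0.0939). Mouse 457 was the only amphetamine mouse inside the saline range. Leaving it out removes the overlap by construction, so the call adds no support. The Fanconi anemia repair gene Fancg and the glycosyltransferase gene Glt8d1 had log2 fold changes of -0.33 and -0.45.

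The immediate early genes were examined because D1 receptor signaling can switch them on. Whether dopamine caused any difference in them at 2 hours was not tested. The promoters of Fos and Nr4a1 are shown because they hold the core of the cAMP response element, TGACG or CGTCA on the given strand, which CREB binds. They are RefSeq sequences on GRCm38.p6, from 250 bases before to 50 bases after the start of transcription, and capitals mark each such core.
Fos, chr12:85473640-85473939, plus strand: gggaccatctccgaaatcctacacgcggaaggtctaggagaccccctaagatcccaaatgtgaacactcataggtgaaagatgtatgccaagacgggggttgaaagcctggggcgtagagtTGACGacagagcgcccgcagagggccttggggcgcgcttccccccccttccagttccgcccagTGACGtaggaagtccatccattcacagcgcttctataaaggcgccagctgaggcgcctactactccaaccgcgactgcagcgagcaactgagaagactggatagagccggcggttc
Nr4a1, chr15:101266596-101266895, plus strand: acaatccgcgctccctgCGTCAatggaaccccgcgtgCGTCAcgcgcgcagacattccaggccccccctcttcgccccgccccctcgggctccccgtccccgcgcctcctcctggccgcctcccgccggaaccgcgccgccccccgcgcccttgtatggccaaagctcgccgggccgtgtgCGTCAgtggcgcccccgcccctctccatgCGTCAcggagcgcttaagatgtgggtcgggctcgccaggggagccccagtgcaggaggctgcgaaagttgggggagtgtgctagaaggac
The Fos window held 2 cores, which begin at bases -129 and -66 from the start, and the Nr4a1 window held 4, which begin at -233, -213, -69 and -40. At least 1 core occurred in 14 of the 25 immediate early gene promoters found in the table, counted with 1 promoter per gene. At least 1 also occurred in 20.8% of all 32851 promoters of this length, where a gene can count more than once. A match of these letters describes the sequence only.

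None of the 34 immediate early genes tested (of 35 listed) passed p under 0.05 in either direction, against 6.35% of all genes. The log2 fold change was above 0 in 32 of the 34, against 49.0% of all genes, and its median was 0.19, against -0.0029 for all genes. The excess rested on 3 amphetamine mice. Fos, the prototype of the family, had 14.4, 11.9, 6.80, 8.56 and 8.07 CPM after saline and 5.51, 19.2, 8.63, 18.3 and 26 CPM after amphetamine. Amphetamine mice 407, 454 and 457 were above every saline mouse, mouse 409 was among the saline mice and mouse 369 was below all of them. The log2 fold change was 0.65 (SE 0.41, adjusted p = 0.816).

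Arc, whose protein acts in the trafficking of AMPA receptors, showed a spread as wide. It had 172, 113, 53.6, 56.9 and 90.9 CPM after saline and 39.7, 202, 81.3, 161 and 214 CPM after amphetamine (log2 fold change 0.53, SE 0.46, adjusted p = 0.855). Mouse 369 was again the lowest of all 10 mice, and saline mouse 411 was higher than amphetamine mice 409 and 454. The orphan nuclear receptor gene Nr4a1 had 97.1, 90.7, 42.0, 62.0 and 54.2 CPM after saline and 35.8, 119.7, 46.6, 94.9 and 129 CPM after amphetamine (log2 fold change 0.30, SE 0.39, adjusted p = 0.912). Egr1, a zinc finger transcription factor, ranged from 170.5 to 299 CPM after saline and from 162 to 337 CPM after amphetamine (log2 fold change 0.15, SE 0.26, adjusted p = 0.937). Without saline mice 448, 469 and 477 the value for Egr1 was -0.093. The amphetamine range enclosed the saline range in Fos, Arc, Nr4a1 and Egr1. Two-sided exact permutation tests of these 4 genes gave p between 0.302 and 0.675, where 5 mice against 5 can reach 0.00794.

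The members with the smallest p, named after their values were seen, were Ptgs2, the inducible cyclooxygenase, and Ier2. Ptgs2 had 7.57, 6.67, 6.01, 4.92 and 4.85 CPM after saline and 8.43, 13.5, 5.84, 12.2 and 5.72 CPM after amphetamine (log2 fold change 0.61, adjusted p = 0.784). Ier2 had 2.85, 1.97, 2.12, 1.89 and 2.06 CPM and 2.21, 3.50, 1.98, 3.62 and 3.84 CPM (log2 fold change 0.48, adjusted p = 0.784). In Ptgs2 mice 407 and 454 stood out and mouse 369 was just above the saline range, and in Ier2 the 3 highest were mice 407, 454 and 457. Bdnf, a growth factor, and Nr4a2 had log2 fold changes of 0.46 and 0.59, which became 0.049 and 0.18 with the cortical score as a covariate. For the list, that covariate left 31 of 34 members above 0 and a median of 0.12.

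Averaged over the list, log2 CPM relative to the mean of the 10 Control mice was 0.47 in mouse 407, 0.31 in mouse 457 and 0.22 in mouse 454. It was -0.34 in amphetamine mouse 369 and -0.13 in amphetamine mouse 409. In the saline mice it was 0.20, 0.019, -0.29, -0.30 and -0.15. Mouse 409 lay among the saline mice, mouse 369 lay below all of them, and saline mouse 411 lay close to mouse 454. The part that cortical tissue had in these levels was not tested beyond the covariate. The 14 feedback genes of MAPK signaling, which include the phosphatase genes Dusp1 and Dusp6, gave 0 members at p under 0.05 and a median of 0.049, with 12 above 0. With the covariate the median was 0.039, with 8 above 0.

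**Figure D3:**
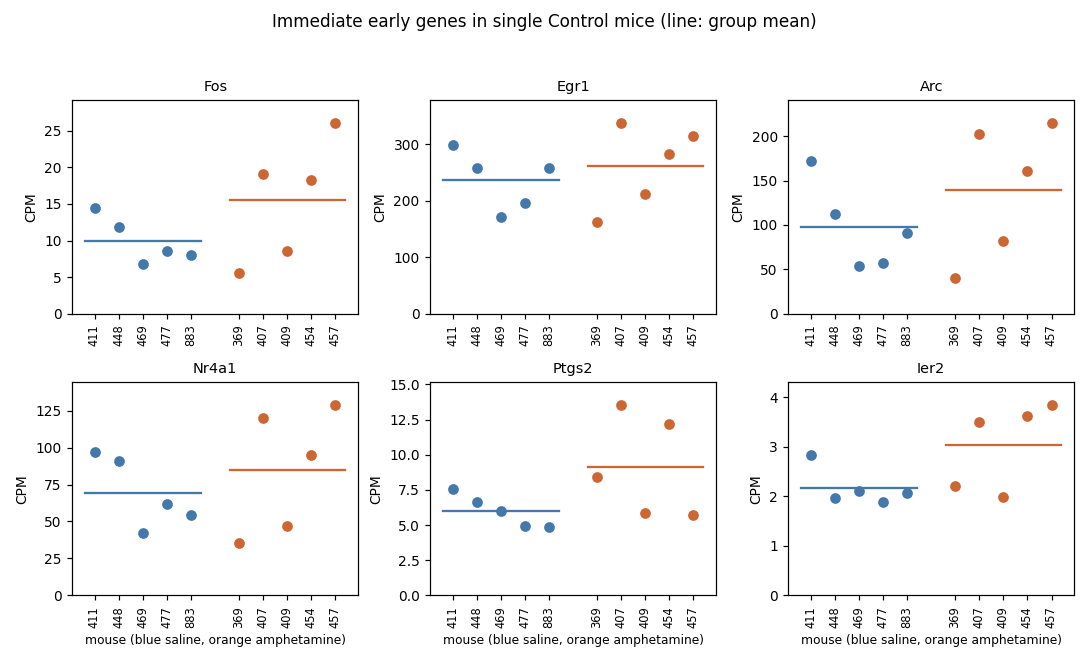
CPM (vertical axis, from 0) of 6 immediate early genes in each Control mouse (horizontal axis), blue for saline and orange for amphetamine, with the group mean as a line. Amphetamine mice 407, 454 and 457 are above the saline mice in Fos, and mouse 369 is below them in Fos, Egr1, Arc and Nr4a1.

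Drd1, Drd2, Penk, Pdyn and Tac1 differed by at most 0.13 on the log2 scale. Drd1, the D1 receptor of direct pathway neurons, had 233, 287, 227, 221 and 243 CPM after saline and 247, 256, 238, 223 and 259 CPM after amphetamine (log2 fold change 0.012, SE 0.14, adjusted p = 0.992). Drd2, the D2 receptor of indirect pathway neurons, ranged from 111 to 148 CPM and from 121 to 154 CPM (log2 fold change 0.070, SE 0.12, adjusted p = 0.936). None of the 4 receptors tested and none of the 5 genes of dopamine synthesis, transport and breakdown tested had p under 0.05, and the list medians were 0.041 and -0.044. With the cortical score as a covariate 1 receptor had p under 0.05, Drd5, a D1-like receptor named after its values were seen, whose log2 fold change went from 0.24 (adjusted p = 0.841) to 0.43 (adjusted p = 0.996). Drd5 ranged from 1.72 to 3.02 CPM after saline and from 2.20 to 3.20 CPM after amphetamine, and Drd3, also expressed at a low level, had a log2 fold change of -0.45 (SE 0.31). The medians with the covariate were 0.016 for the receptors and 0.048 for the other list, where the sign turned. Drd4 and the dopamine transporter gene Slc6a3 did not pass the filter, with at most 4 and 20 counts in a Control mouse.

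Penk, the enkephalin precursor of indirect pathway neurons, ranged from 1094 to 1493 CPM after saline and from 1177 to 1462 CPM after amphetamine (log2 fold change 0.067, SE 0.13). Pdyn, the dynorphin precursor of direct pathway neurons, ranged from 108 to 160.3 and from 107 to 153 CPM (-0.052, SE 0.16, on the log2 scale). Tac1, the substance P precursor, ranged from 203 to 271 and from 198 to 246 CPM (-0.13, SE 0.12, on the log2 scale). The sign for Pdyn turned with cortical and oligodendrocyte scores as covariates, to 0.054, and that of Drd1 turned with library sizes alone, to -0.0041. The groups overlapped in all 3 peptides, and the adjusted p values were 0.943, 0.965 and 0.864. None of the 12 neuropeptide genes had p under 0.05, and their median was -0.052, or -0.014 with the covariate. The widest difference was that of Trh, with 1.45, 6.84, 12.3, 12.3 and 2.83 CPM after saline and 3.20, 3.31, 3.60, 2.88 and 3.16 CPM after amphetamine (log2 fold change -1.15, adjusted p = 0.784). The saline mice high in Trh, 448, 469 and 477, were those low in cortical markers, and the covariate brought the log2 fold change to -0.44.

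Of the 15 genes of striatal cAMP and calcium signaling, which include Ppp1r1b (DARPP-32), Adcy5 and Pde10a, 0 had p under 0.05. The log2 fold change was above 0 in 13 of them, against 49.0% of all genes, with a median of 0.076, or 0.046 with the covariate. Of the 8 direct pathway markers 1 had p under 0.05 and was higher, against 3.08% of all genes, the transcriptional coactivator Eya1, with 10.8, 9.42, 6.73, 9.07 and 10.4 CPM after saline and 9.65, 13.1, 9.66, 11.3 and 14.6 CPM after amphetamine (log2 fold change 0.33, adjusted p = 0.783). The groups overlapped, and with the covariate 0 members had p under 0.05 and the median of the list turned from 0.024 to -0.0099. Of the 6 indirect pathway markers tested, 0 had p under 0.05, and their median was 0.069, or 0.039 with the covariate.

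Glutamate receptors held 4 members at p under 0.05, all higher with amphetamine, among 22 tested (3.08% of all genes were higher at this p), and 0 lower. The list's median was 0.060, or 0.070 with the covariate. Grik3, a kainate receptor subunit, had 139, 126, 131, 118 and 129 CPM after saline and 145, 162, 157, 150.4 and 160.5 CPM after amphetamine (log2 fold change 0.27, SE 0.075, adjusted p = 0.677). The groups did not overlap. The metabotropic receptor gene Grm3 did not overlap either, with 53.8, 54.1, 51.8, 48.3 and 58.5 CPM and 66.0, 63.7, 60.7, 62.4 and 64.1 CPM (log2 fold change 0.25, SE 0.11, adjusted p = 0.783).

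The NMDA receptor subunit gene Grin2a had 20.6, 17.3, 14.0, 16.7 and 17.0 CPM after saline and 24.3, 30.4, 19.5, 27.2 and 16.6 CPM after amphetamine (log2 fold change 0.46, adjusted p = 0.748). Mouse 457 lay among the saline mice. Grin2b, another NMDA subunit gene, had 371, 351, 275, 281 and 308 CPM and 414, 418, 382, 379 and 294 CPM (log2 fold change 0.25, adjusted p = 0.783), again with mouse 457 among the saline mice. With the cortical score as a covariate only Grik3 kept p under 0.05 among the 22 (log2 fold change 0.22), against 2.37% of all genes higher at this p. The AMPA receptor genes Gria1 to Gria4 had log2 fold changes between -0.059 and 0.12.

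Of the 19 glucocorticoid response genes 2 had p under 0.05, both higher with amphetamine (3.08% of all genes), and 18 had a log2 fold change above 0 (49.0% of all genes), with a median of 0.14. These were Klf9, described above, and Pdk4, a kinase that restrains pyruvate dehydrogenase. Pdk4 had 13.5, 21.2, 14.8, 19.0 and 15.5 CPM after saline and 28.6, 17.4, 18.2, 29.5 and 26.8 CPM after amphetamine (log2 fold change 0.52, SE 0.19, adjusted p = 0.693). Mice 369, 454 and 457 were above every saline mouse, while mice 407 and 409 lay among them. Mouse 369 was thus high here and lowest in Fos. The excess of the list rested on the same 3 amphetamine mice. Its mean log2 CPM, relative to the Control mean, was 0.11, 0.26 and 0.21 in mice 369, 454 and 457. Amphetamine mice 407 and 409, at -0.076 and -0.031, lay within the saline range of -0.15 to -0.0078. The chaperone gene Fkbp5 and the kinase gene Sgk1 had log2 fold changes of 0.17 and 0.33 (adjusted p = 0.822 and adjusted p = 0.833). With the cortical score as a covariate 3 members were higher at p under 0.05 (2.37% of all genes), Klf9, Pdk4 and Hif3a, and the list's median was 0.16. Klf9 and Sgk1 are also responsive to signals other than glucocorticoids.

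**Figure D4:**
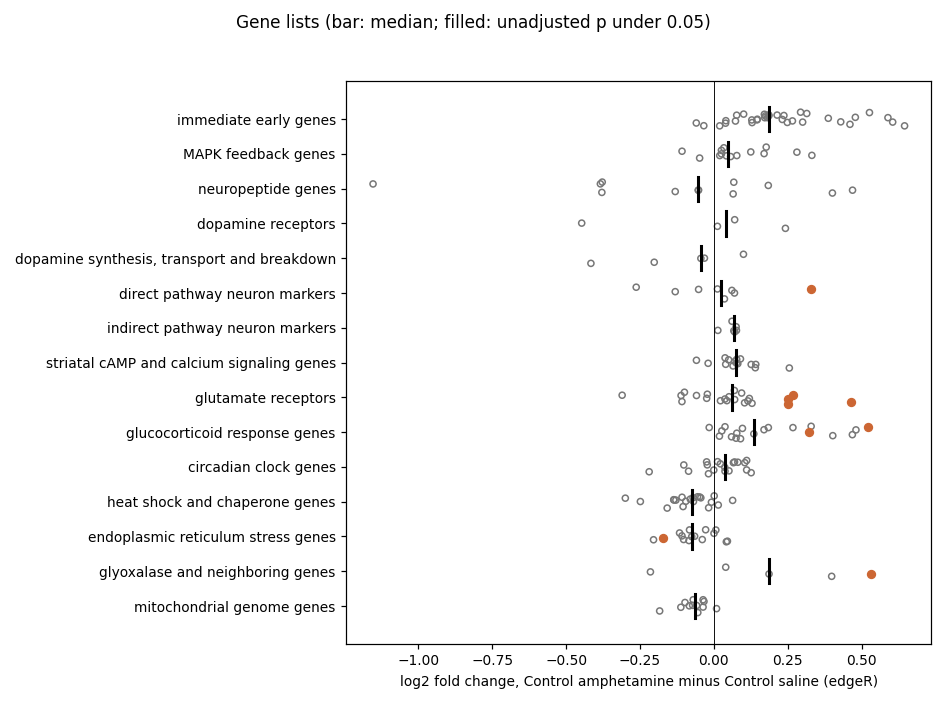
Log2 fold change, Control amphetamine minus Control saline (horizontal axis), of each gene tested in 15 gene lists (vertical axis). Filled points have unadjusted p under 0.05 and bars are list medians. The immediate early genes lie mostly to the right of 0 with no filled point, and the filled points are 4 glutamate receptors, 2 glucocorticoid response genes, Eya1, Glo1 and Ddit3.

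The median log2 fold change was -0.075 for 20 heat shock and chaperone genes, with 0 members at p under 0.05 and 3 above 0, against 49.0% of all genes. It was -0.075 for 15 genes of endoplasmic reticulum stress. Of these 1 was lower at p under 0.05, against 3.27% of all genes, Ddit3, which encodes the stress factor CHOP, with 18.7, 20.5, 19.6, 17.7 and 20.7 CPM after saline and 16.5, 17.7, 18.9, 16.7 and 16.5 CPM after amphetamine (log2 fold change -0.17, adjusted p = 0.751). The groups overlapped. The 12 mitochondrial genome genes tested had a median of -0.064 and the 19 circadian clock genes a median of 0.037, with 0 members at p under 0.05 in each. With the covariate the medians were -0.042 for heat shock, -0.049 for endoplasmic reticulum stress and -0.065 for mitochondrial genome genes. The clock median turned to -0.026, and 1 clock gene, Rorb, also named after its values were seen, was lower at p under 0.05 (log2 fold change -0.30, adjusted p = 0.996). Glo1 and its 4 companions on the glyoxalase list had a median of 0.19, or 0.10 with the covariate.

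Among marker genes of other cell types, 1 of 7 astrocyte markers and 1 of 9 endothelial cell and pericyte markers had p under 0.05, against 6.35% of all genes, and 0 in each other list. Slc1a2, named for that reason, the main glutamate transporter of astrocytes, had 2886, 2657, 2608, 2579 and 2972 CPM after saline and 3048, 3084, 3174, 3282 and 3273 CPM after amphetamine (log2 fold change 0.21, SE 0.064, adjusted p = 0.677), with no overlap between the groups. The median of the 7 astrocyte markers was 0.017. Pecam1, an adhesion molecule of endothelial cells, had 12.8, 17.8, 17.2, 15 and 17.0 CPM and 12.6, 12.5, 14.1, 12.3 and 12.6 CPM (log2 fold change -0.32, SE 0.10, adjusted p = 0.693). Saline mouse 411 lay among the amphetamine mice. All 9 endothelial cell and pericyte markers had a log2 fold change below 0, where 49.0% of all genes were above 0, with a median of -0.22. With the cortical score as a covariate the median was -0.18, and 2 of the 9 were above 0. The summed level of these markers was 231 to 293 CPM after saline and 218 to 273 CPM after amphetamine. Other marker lists also lay wholly to one side of 0. All 8 choroid plexus markers (median -0.75) and all 5 red blood cell markers (median -1.37) were below 0. All 9 medium spiny neuron markers (median 0.081) and all 8 cortical markers were above 0. Markers of cortical excitatory neurons had a median log2 fold change of 0.46 with 0 of 8 members at p under 0.05, and oligodendrocyte, microglia and interneuron markers had medians of 0.012, 0.059 and -0.0031.

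Glo1 encodes glyoxalase 1, which detoxifies methylglyoxal, and lies on chromosome 17 from 30584936 to 30626871. It had 108, 63.2, 66.0, 59.0 and 135 CPM after saline and 141, 132, 101, 109 and 141 CPM after amphetamine. Saline mice 448, 469 and 477 were the lowest, and the 5 amphetamine mice and saline mice 411 and 883 were all above them. The log2 fold change was 0.53 (SE 0.20, adjusted p = 0.731), while the robust likelihood-ratio test estimated 0.77 (adjusted p = 0.00197). The saline mice low in Glo1 were those low in cortical markers, and with that score as a covariate the log2 fold change was 0.45. Its neighbor Btbd9 had 73.3, 59.9, 58.3, 54.8 and 74.5 CPM after saline and 69.5, 90.7, 68.4, 66.1 and 70.6 CPM after amphetamine (log2 fold change 0.19, adjusted p = 0.791), with the same saline mice lowest. Hagh, the next enzyme of the pathway, stayed between 52.9 and 58.0 CPM in all 10 mice (log2 fold change 0.040).

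Several genes of smallest p had distinct levels among single mice that did not follow the treatment alone. Gm6274, a processed pseudogene on chromosome X from 36668217 to 36669013, had 1, 49, 67, 62 and 65 counts after saline and 2, 1, 4, 5 and 2 counts after amphetamine. Saline mouse 411 was at the amphetamine level, and the 10 High-Active mice had 0 to 4 counts. It exceeded 1 CPM in the 4 high saline mice alone, so it was tested only through the group where it was high, and its p is given as a description (smallest of all genes, log2 fold change -3.89, SE 0.67, adjusted p = 0.191), and 4 of 5 saline mice lay above every amphetamine mouse. Tcea1-ps1, a processed pseudogene on chromosome 15 from 90882615 to 90883518, had 19, 122, 150, 166 and 142 counts after saline and 22, 30, 25, 36 and 25 counts after amphetamine (log2 fold change -1.92, SE 0.37, adjusted p = 0.354). The same 4 saline mice were high and alone exceeded 1 CPM, mouse 411 was low, and the High-Active mice had 17 to 45 counts. With a filter of 1 CPM in 5 mice neither gene was tested. Both were among the 3 genes called without mouse 411, where the saline mouse at the amphetamine level is removed by construction, and both were among the 6 that DESeq2 called. Such a pseudogene and its parent gene may share reads, which makes these counts uncertain.

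Mcmdc2 on chromosome 1, which acts in meiotic recombination, was called by the likelihood-ratio test and had 7, 139, 135, 159 and 177 counts after saline and 54, 5, 6, 47 and 3 counts after amphetamine (adjusted p = 0.0143 in that test). Saline mouse 411 was again apart from the other saline mice, and the amphetamine mice fell at 2 levels, with mice 369 and 454 at 54 and 47 counts and the others at 6 or fewer. Another set was high in amphetamine mice 407, 454 and 457. Gm10600 on chromosome 4, from 42240639 to 42242685, had 0, 1, 3, 0 and 0 counts after saline and 1, 115, 0, 122 and 319 counts after amphetamine. Its neighbor Gm5859, from 42236859 to 42239182, had 7, 0, 33, 5 and 5 and 9, 183, 4, 219 and 590 counts.

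The same 3 mice were high in Gm7935, a processed pseudogene on chromosome 15, with 11, 6, 11, 15 and 14 counts after saline and 7, 60, 4, 55 and 151 counts after amphetamine. They were also high in Gm10320 on chromosome 13, with 1, 0, 2, 1 and 1 and 1, 32, 2, 40 and 99 counts. Among the High-Active mice of either treatment Gm10600 ranged from 0 to 171 counts and Gm10320 from 0 to 74, so high and low mice occurred there too. Gm5859 is annotated as an unprocessed pseudogene, and reads of such copies can be shared with near-identical genes, so these counts are uncertain too. Mcmdc2, Gm5859 and Gm10320 were named after their values were seen. Amphetamine mice 407, 454 and 457 are also the 3 that were high in Fos. They had different parents from each other. Any link between these counts and the level of Fos was not tested.

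**Figure D5:**
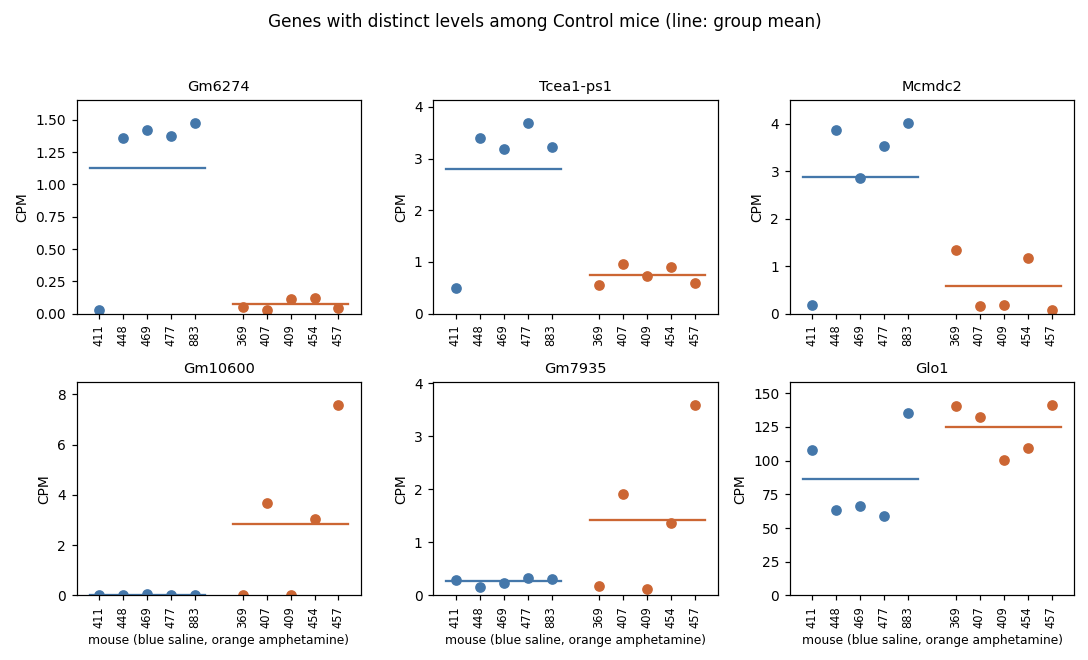
CPM (vertical axis, from 0) of 6 genes in each Control mouse (horizontal axis), blue for saline and orange for amphetamine, with the group mean as a line. In Gm6274 and Tcea1-ps1 saline mouse 411 sits with the amphetamine mice, and in Gm10600 and Gm7935 amphetamine mice 369 and 409 sit with the saline mice.

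Genes of this kind were frequent among those that the likelihood-ratio test called. Of its 45 genes, 20 (44.4%) spanned more than 3 on the log2 CPM scale over the 10 Control mice, against 2.35% of all genes. Of the 45, 13 (28.9%) were annotated as other than protein coding, against 7.20% of all genes. The quasi-likelihood test gave p under 0.05 for 35 of the 45. Those with narrower ranges included Atp2b4, named after its values were seen, a plasma membrane calcium pump, with 258, 164, 168, 153 and 149 CPM after saline and 198, 290.0, 224, 244 and 232 CPM after amphetamine (log2 fold change 0.42, adjusted p = 0.693 in the quasi-likelihood test and 0.00195 in the likelihood-ratio test). Saline mouse 411 lay above every amphetamine mouse but 407, and the other 4 saline mice lay below all of them. Without mouse 411 the quasi-likelihood test called Atp2b4. Leaving that mouse out removes the overlap by construction, so the call adds no support.

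The related mice give a comparison within families. Amphetamine mouse 407 differed from saline mouse 448, with the same parents, by 0.69 in Fos, 0.85 in Arc and 0.29 in Klf9 on the log2 CPM scale. Amphetamine mouse 409 differed from saline mouse 411, with the same parents, by -0.74, -1.08 and 0.14 in the same genes. Fos and Arc thus went in opposite directions in the pairs. In genes whose groups did not overlap, Klf9 among them, the sign within a pair follows from the separation of the groups. It adds no support for these genes, and only the sizes are given. Grik3 differed by 0.36 and 0.17, and Srek1 by -0.21 and -0.23. Gm6274 was lower by 4.15 in mouse 407 than in mouse 448 and differed by 1.13 between mice 409 and 411, where both had under 5 counts.

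The sign of the difference varied with gene length. Over 14650 genes with an annotated exon length, the median log2 fold change was -0.036 among the 2930 shortest genes and 0.025 among the 2930 longest. At p under 0.05, 45 of the shortest were higher and 120 lower, and 180 of the longest were higher and 72 lower. The share of reads that HTSeq listed as on no annotated gene was 8.63% to 9.55% after saline and 8.53% to 9.54% after amphetamine. Spearman's rho between length and log2 fold change was 0.16 across genes, which are not independent replicates. The cause of this trend was not tested.

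The High-Active mice, with 5 after each treatment, address whether the response differed between the lines. No gene passed FDR 0.1 for the difference between the lines in the response (0.0%), and 440 genes (2.97%) had p under 0.05. This test shares the 10 Control mice with the values above. DESeq2 also called 0, and the likelihood-ratio test with robust dispersions called 6. Of the 940 genes with p under 0.05 in Control mice, 719 (76.5%) had the same sign in High-Active mice, against 61.7% of all genes. All 8 cortical markers had a log2 fold change above 0 in both lines. The part that cortical tissue had in this agreement was not tested. In High-Active mice 1247 genes (8.43%) had p under 0.05, 731 of them (4.94%) higher with amphetamine, and 0 passed FDR 0.1. The lines have separate saline groups but were fitted and scaled together. Across all genes the log2 fold changes of the lines had a Pearson's r of 0.23 and a Spearman's rho of 0.28.

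The genes of smallest p for the difference between the lines were 2610002M06Rik, Rtl8a, Resf1, Tcea1-ps1 and Cplx1, all with an adjusted p of 1.00. Cplx1, which encodes the synaptic fusion regulator complexin 1, had log2 fold changes of -0.087 (SE 0.065) in Control and 0.24 (SE 0.065) in High-Active mice. Rtl8a, a gene derived from a retrotransposon, had 0.31 (SE 0.11) and -0.28 (SE 0.11), Resf1, a silencer of retroviral elements, 0.12 and -0.18, and 2610002M06Rik 0.12 and -0.18. For the immediate early genes the median log2 fold change was 0.19 in Control and -0.021 in High-Active mice, where 14 of 34 were above 0. In this list 1 member, Tiparp, had p under 0.05 for the difference (adjusted p = 1.00), against 2.97% of all genes. The glutamate receptors had 2 of 22 at this p and the glyoxalase list 2 of 5, and the other gene lists had none. The glyoxalase list had a median of 0.19 in Control and -0.21 in High-Active mice. Fos had 0.65 (SE 0.41) in Control and -0.11 (SE 0.41) in High-Active mice. The median log2 fold change of the cortical markers was 1.36 in High-Active mice and 0.46 in Control mice.

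Distance traveled after the injection, in a unit the labels do not name, was 17.4 to 45.4 in the saline mice and 23.2 to 57.1 in the amphetamine mice. The means differed by 2.18 (exact permutation test, two-sided, p = 0.873, n = 5 per group), and the sign turned, to -1.26, after adjustment for the distance in the re-phenotyping before treatment. Amphetamine mouse 407, with the highest mean of the early genes, traveled 57.1. Mouse 457, with the highest Fos, traveled 23.2, the least of the amphetamine mice, and mouse 454 traveled 25.5.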

How the data were processed

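Striatum RNA-seq libraries of 20 mice, 5 in each group of line and treatment, were used. The authors aligned the reads with TopHat2 2.0.10 and Bowtie2 2.1.0 and counted them with HTSeq 0.6.1, per the study's methods and processing notes. The deposited values are raw counts per Ensembl gene, 1 file per mouse. HTSeq's summary lines were left out of the library sizes. Reads in its line for no annotated gene were 8.53% to 9.55% of all reads listed for a Control mouse. All of its summary lines together, which hold every read not counted on a single gene, were 15.97% to 17.49%. Without molecular identifiers, limits from counts of 0 or 3 cover counting error only.

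Counts were tested with edgeR 4.0.16 (R 4.3.3) by the quasi-likelihood test with TMM scaling, over all 4 groups with 1 mean per group, on 14792 genes with over 1 CPM in at least 3 mice. Benjamini-Hochberg adjustment ran over all of these genes and calls were made at FDR 0.1. CPM values were scaled by TMM. DESeq2 1.42.0, limma 3.58.1 (voom with family as a random block), edgeR's likelihood-ratio test, other scalings, filters and covariates, and each Control mouse left out were alternatives. Scripts were tested on simulated data. Named were the 12 genes of smallest p in each direction, list members with p under 0.05, 10 fixed genes (Fos, Egr1, Arc, Nr4a1, Drd1, Drd2, Penk, Pdyn, Tac1 and Glo1) and the 5 genes of smallest p for the difference between the lines. Some genes that meet these criteria or belong to a list are not reported here. The comparison, the gene lists and the marker lists were chosen with earlier results of these data known. The replicates are separate animals, some of them siblings. No pair of libraries of a group agreed within counting noise (smallest chi-square per gene 18.4). Promoter sequences came from RefSeq on GRCm38.p6.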

Additional observations from a re-analysis of the deposited data

Results flagged for a closer look

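In each group of 5 mice, a mouse was noted when its gap to the nearest other mouse exceeded 0.71 of the group's range. Of 112 groups of values examined, 9 met this, and chance alone gives about 1 in 20. Among genes, amphetamine mouse 457 was low in Slc8a1 at 14.9 CPM and in Grin2b at 293.7 CPM. Saline mouse 411 was low in Gm6274 at 0.026 CPM and in Tcea1-ps1 at 0.501 CPM, and saline mouse 883 was low in Mirg at 29.5 CPM. Among marker lists, saline mouse 883 stood apart in microglia markers at 501 summed CPM and amphetamine mouse 369 in endothelial cell and pericyte markers at 273 summed CPM. Amphetamine mouse 407 had the longest distance after injection, 57.1 in the label's unit, and the longest distance in the re-phenotyping before it, 0.474 km per day.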

How the results depend on the processing

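A paired analysis over all mice was not possible because the groups shared no animal number. Parentage linked only some mice: 2 amphetamine mice each had a saline sibling, and a limma-voom fit with family as a random block called 0 genes, with 915 at p under 0.05. The count of genes at FDR 0.1 for amphetamine in Control mice was 0 in the quasi-likelihood test, 6 with DESeq2, 45 with the robust likelihood-ratio test, and 0 to 3 with 1 mouse left out. The number with p under 0.05 was 490 without saline mice 448, 469 and 477 and 621 to 1224 with 1 mouse left out. For the difference between the lines the likelihood-ratio test called 6 genes and leaving out 1 Control mouse gave 0 to 1. The number with p under 0.05 for this difference was 886 with no filter and 661 without saline mice 448, 469 and 477. It was 385 to 619 with 1 Control mouse left out. No High-Active mouse was left out for this difference. Genes whose groups did not overlap numbered 222 to 507 with 1 mouse left out, where fewer mice raise the count by construction. The difference in distance was -1.26 after adjustment for the re-phenotyping distance and -3.80 to 5.79 with 1 mouse left out. Signs turned for Egr1 (-0.093 without saline mice 448, 469 and 477), for Drd1 (-0.0041 with library sizes alone, -0.013 with the cortical score, -0.018 to 0.082 with 1 mouse left out) and for Pdyn (0.054 with cortical and oligodendrocyte scores, -0.14 to 0.050 with 1 mouse left out). The cause was not tested. Over 41 named genes and 894 alternative values, 861 kept direction and side of the threshold, 24 passed FDR 0.1 (17 genes) and 9 turned sign (3 genes). The alternatives without mice 448, 469 and 477 and with the cortical score alone were chosen after seeing the data. With 5 mice per group, differences within the spread between mice were not detectable.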
